A study of Mus musculus with 14 samples.

Results

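In testes of Hells cKO mice, 965 of the 17117 peaks of the single-strand DNA-binding recombinase DMC1 lay at bidirectional coding promoters, where 2 protein-coding genes start close together on opposite strands. These members were chosen by position: the center of an autosomal Hells cKO peak had no Hells CTRL peak center less than 400 bp away. It also had annotated transcript starts of at least 2 different protein-coding genes, on opposite strands, within 1 kb. The values that selected the members were therefore the presence of a peak in the Hells cKO list and its absence from the Hells CTRL list, and neither is treated as a finding. Of the 16321 autosomal Hells cKO peaks, 15443 had no Hells CTRL center less than 400 bp away and are called mutant-specific here. The members were 965 of these, 7793 were at coding promoters that did not meet the pair rule (one-directional here), 1128 were near noncoding starts alone and 5557 had no start within 1 kb.

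DMC1 was mapped in whole testis by ChIP followed by sequencing of single-stranded DNA (SSDS). Hells cKO mice carried 1 floxed and 1 deleted Hells allele with the Stra8-iCre transgene (Hellsfl/Δ;Stra8-iCre), were 9 weeks old and gave 3 testes per replicate. Hells CTRL mice were Hellsfl/Δ without Cre, 5 weeks old, with 2 testes per replicate. Both had the Dom2 allele of Prdm9. The Stra8 promoter drives Cre in germ cells that enter meiosis, and the study's text describes cells in which the protein remained, so the mutant testis was not uniformly without HELLS. The 2 replicates of each genotype had been merged into 1 final list, so no value below has a spread between mice, no test across mice was possible, and age and genotype cannot be told apart. The unit of each peak is the authors' strength, a score of normalized DMC1 fragments that is comparable within a list and was not scaled between genotypes. The number of reads behind it is unknown. Intervals given with shares (Clopper-Pearson) and medians (order statistics) are exact 95% intervals that cover counting error only, with peaks and genes that are not independent.

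HELLS is a chromatin remodeler of the SNF2 family that acts with PRDM9, the zinc finger methyltransferase that marks the sites of meiotic DNA breaks. DMC1 coats the single-stranded DNA at these breaks, so a DMC1 peak marks a place where breaks form. The study's text states that DMC1 signal also depends on break repair and that its dynamics were altered in Hells cKO. Strength is therefore not a count of breaks. In mice without PRDM9, meiotic breaks form at promoters and other sites with trimethylated lysine 4 of histone H3. Bidirectional promoters are short regions shared by a pair of genes, often CpG islands that drive genes used in most cell types, many of them in DNA repair, mitochondria and basic cell functions. As the background for all gene counts, 9396 of the 20807 autosomal coding genes (45.2%) had a mutant-specific center within 1 kb of a start, and 475 (2.28%) had a Hells CTRL center there.

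The reach of 1 kb passed through a continuous range. The members nearest to the 1 kb limit, by their farther start, were Nol4l/4930404H24Rik at 997 bp with a strength of 20, Prr11/Ska2 at 995 bp with 258 and Map3k12/Tarbp2 at 983 bp with 16. Just outside were Sept1/Mylpf at 1009 bp with 21, Ift80/Smc4 at 1015 bp with 259 and Btf3l4/Txndc12 at 1033 bp with 94. At the limit on Hells CTRL centers there was a wide gap: the nearest excluded center was 192 bp away (Mepce/Zcwpw1) and the nearest one among members 521 bp away (Trim46/Krtcap2, strength 12). The median distance from a member to a Hells CTRL center was 59902 bp. Gene pairs are written with the minus-strand gene first.

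The sequence between the paired starts is shown for 5 of the strongest members, in divergent order with starts up to 300 bp apart, as the plus strand of GRCm38 over 120 bases around the midpoint of the starts. Capitals mark words searched on both strands: CCAAT (NFY), GGGCGG (SP1), CGCATGCG (NRF1) and CCGGAAG (ETS), with the reverse complement in capitals where the word lies on the minus strand. The windows are chr6:8259155-8259274 for Rpa3/Umad1 (strength 386) and chr6:142387111-142387230 for Recql/Golt1b (371). They are chr19:21653021-21653140 for 1110059E24Rik/Abhd17b (343), chr3:146499762-146499881 for Spata1/Gng5 (337) and chr19:53944697-53944816 for Bbip1/Shoc2 (317).
Rpa3/Umad1: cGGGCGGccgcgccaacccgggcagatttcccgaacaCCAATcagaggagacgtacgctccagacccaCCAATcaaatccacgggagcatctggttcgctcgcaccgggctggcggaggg
Recql/Golt1b: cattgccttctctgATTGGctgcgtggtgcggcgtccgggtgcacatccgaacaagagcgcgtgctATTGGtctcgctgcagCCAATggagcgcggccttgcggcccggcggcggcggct
1110059E24Rik/Abhd17b: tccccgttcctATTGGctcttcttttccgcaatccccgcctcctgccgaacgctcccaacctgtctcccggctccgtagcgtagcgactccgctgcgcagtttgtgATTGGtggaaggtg
Spata1/Gng5: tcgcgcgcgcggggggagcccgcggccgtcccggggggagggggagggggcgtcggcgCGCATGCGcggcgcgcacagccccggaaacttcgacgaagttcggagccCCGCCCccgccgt
Bbip1/Shoc2: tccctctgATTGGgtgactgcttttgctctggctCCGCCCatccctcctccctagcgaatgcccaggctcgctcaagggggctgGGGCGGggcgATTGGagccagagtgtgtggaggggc
CCAAT or its complement was in 4 of these 5 windows and was absent from the window of Spata1/Gng5, which held the NRF1 word and the GC content of 81.7% that was highest among them. The CpG number in the 120 bases ranged from 5 for Bbip1/Shoc2 to 24 for Spata1/Gng5.

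For contrast, the same windows are given for 2 of the weakest members, chosen after their values were seen, Poll/Gm17018 (chr19:45560524-45560643) and Zbtb49/Lyar (chr5:38220446-38220565), both with a strength of 10.
Poll/Gm17018: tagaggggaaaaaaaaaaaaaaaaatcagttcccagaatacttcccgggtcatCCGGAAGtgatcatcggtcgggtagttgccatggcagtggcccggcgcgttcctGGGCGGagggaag
Zbtb49/Lyar: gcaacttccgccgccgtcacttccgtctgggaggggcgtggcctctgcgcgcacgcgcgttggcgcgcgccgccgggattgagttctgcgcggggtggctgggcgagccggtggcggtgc
The Poll window held an ETS and an SP1 word, and the Zbtb49 window held 20 CpG and none of the words. In all 7 windows the peak center lay outside the printed bases. These 7 windows illustrate the promoters and are not a sample of the 965. In the wider window of 250 bp on each side of the center, CCAAT was in 40.7% of all members. Median strength was 61 with the word there and 59 without it.

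Members were stronger than other mutant-specific peaks. Their median strength was 59 (interval 55 to 65), with quartiles at 32 and 117 and a range from 8 to 507. Peaks at one-directional coding promoters had a median of 43 (42 to 44), those at noncoding starts alone 24 (23 to 26) and those with no start within 1 kb 22 (21 to 22). The members made up 5.64% of the whole list and 8.97% of its summed strength. Of the members, 230 (23.8%, interval 21.2% to 26.7%) were in the strongest 10% of the list, at a strength of at least 120, and 19 (1.97%) were in the weakest 10%. The same shares of one-directional peaks were 14.3% (13.5% to 15.1%) and 5.15%. A strength of 100 or more was found for 30.5% of members and 19.7% of one-directional peaks. The shares of members among mutant-specific peaks increased from 1.34% in the weakest 10% of the list to 15.4% in the strongest, and among peaks at coding promoters from 4.52% to 17.2%.

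**Figure D1:**
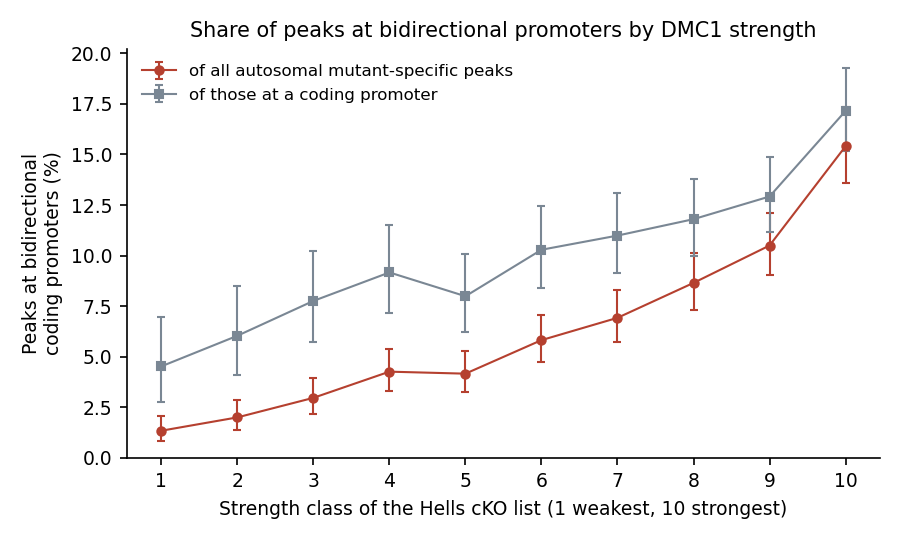
Percent of autosomal mutant-specific peaks (circles), and of those at coding promoters (squares), that were at bidirectional coding promoters, in 10 strength classes of the Hells cKO list (x axis, weakest to strongest; bars, exact 95% intervals). The shares increase from 1.34% to 15.4% and from 4.52% to 17.2%, with a small dip in class 5.

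Among the strongest 12 members, 10 are named here. They include Hmmr/Nudcd2 (chr11:40732563-40735004, 447), where Hmmr encodes a spindle-associated receptor for hyaluronan. Rpa3/Umad1 (chr6:8257692-8260593, 386) holds the gene for the smallest subunit of replication protein A, which binds single-stranded DNA. Nudcd1/Eny2 (chr15:44426872-44429383, 377) was the strongest member in overlapping order by the starts nearest to its center. By the closest starts of the 2 genes, 154 bp apart, the pair is divergent. Eny2 encodes a subunit of the SAGA and TREX-2 complexes. Recql/Golt1b (371) holds the gene of a RecQ family helicase. The others named were 4930503L19Rik/Stard6 (352), 1110059E24Rik/Abhd17b (343), Spata1/Gng5 (337), Strn3/Ap4s1 (330), Bbip1/Shoc2 (317) and Zfp654/Cggbp1 (310). Bbip1 encodes a subunit of the BBSome of cilia and Shoc2 a scaffold of Ras signaling. None of the 12 had a Hells CTRL center within 7 kb, the nearest being 7630 bp from Strn3/Ap4s1. The weakest members were Dnajc18/1700066B19Rik (8), Cbx5/Hnrnpa1 (chr15:103238600-103240379, 9) and 5 pairs at a strength of 10, among them Large2/Pex16 (chr2:92374593-92376160). Cbx5 encodes heterochromatin protein HP1 alpha and Hnrnpa1 an RNA-binding protein of most cells.

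CpG number moved with strength in both promoter classes. Within 250 bp of the center the members had a median of 42 CpG (quartiles 34 and 53) and a GC content of 64.3%, and one-directional peaks a median of 41 CpG (28 and 56) and 65.1%. The noncoding and no-start classes had medians of 17 and 14 CpG. Spearman's correlation of strength and CpG number was 0.269 over the 965 members and 0.382 over the 7793 one-directional peaks, points that share 1 merged library and its GC content. With CpG number held to a class, the members' median strength stayed above that of one-directional peaks. It was 51 (43 to 59) against 36 (34 to 38) at 30 to 39 CpG, and 65 (55 to 78) against 49 (46 to 51) at 40 to 49 CpG. In the classes with fewer than 20 CpG and with 60 or more, the intervals overlapped, as for 95 (79 to 103) against 80 (74 to 85) in the latter. The intervals at 50 to 59 CpG also met, 71 (58 to 83) against 58 (55 to 62). Peak width moved with strength as well: the median interval was 2230 bp for members and 2068 bp for one-directional peaks, and Spearman's correlation of width and strength was 0.444 over members. The part of width in the difference was not tested.

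**Figure D2:**
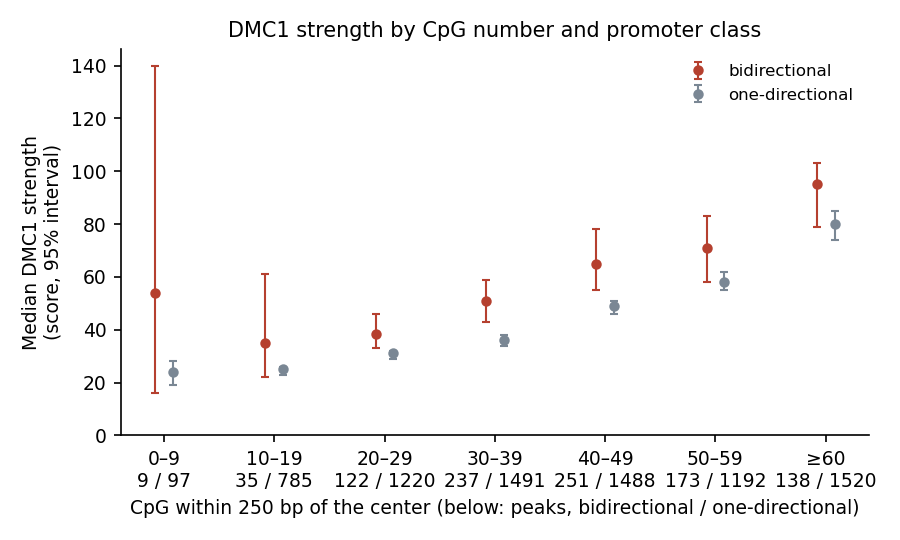
Median DMC1 strength (score) of members and of peaks at one-directional coding promoters in 7 classes of CpG number within 250 bp of the peak center, with exact 95% intervals and the numbers of peaks under each class. Medians of members lie above those of one-directional peaks in each class, with overlapping intervals below 20 CpG and from 50 CpG.

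A member also had 2 coding starts to lie near. The nearest start was a median of 71 bp from the center (quartiles 23 and 154) and 150 bp (61 and 282) for one-directional peaks, and the second start of a member was 251 bp away. With the distance to the nearest start held to under 100 bp, the median strength was 61 (55 to 66) for 585 members and 44 (42 to 45) for 2876 one-directional peaks. From 100 to under 200 bp it was 55 (49 to 68) for 206 members and 44 (41 to 46) for 1836 one-directional peaks. In the 3 classes farther away the members' medians were also higher, but with overlapping intervals, as for 62.5 (45 to 92) against 47 (44 to 50) from 200 to under 300 bp.

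By the starts nearest to the peak center, the paired genes were mostly in divergent order. In this order, the minus-strand start lies to the left of the plus-strand start. This was the order of 770 members (79.8%, interval 77.1% to 82.3%), and the starts nearest to the center were a median of 177.5 bp apart (quartiles 97.3 and 309.5, range 3 to 1376). In the other 195 members (20.2%) the transcripts from these nearest starts overlapped, with quartiles of the overlap at 141.5 and 445.5 bp. Other transcripts of the same genes can lie in a different order. Median strength was 61 (55 to 67) in divergent and 55 (50 to 63) in overlapping order, with overlapping intervals. Strength did not order by the space between divergent starts: the medians were 55, 68.5, 56, 61 and 72 for spaces of up to 100, 200, 300, 500 and 1000 bp, each class starting above the one before, and Spearman's correlation over the 770 members was 0.038.

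Peak centers were most frequent around the midpoint of the starts and fewer on both sides of it. Part of this was set in advance: the rule required both starts within 1 kb of the center. The starts used were also those nearest to the center. The center was within 250 bp of the midpoint of the starts in 740 members (76.7%) and within 100 bp in 383 (39.7%). In divergent pairs the center lay between the starts in 268 of 770 (34.8%, interval 31.4% to 38.3%) and past one of them, inside a gene, in 502. The share between the starts was 21.6% for starts up to 100 bp apart, 29.7% for over 100 to 200 bp, 39.7% for over 200 to 300 bp, 39.7% for over 300 to 500 bp and 61.8% for over 500 to 1000 bp. Wider spaces leave more room between the starts, and the share was not corrected for it. Of the 502 centers outside, 237 (47.2%, interval 42.8% to 51.7%) were on the side of the minus-strand gene, so neither strand held clearly more. Those centers were a median of 88.5 bp beyond the nearer start. At one-directional promoters 71.7% of centers were downstream of the nearest start, by a median of 177 bp, and the share downstream of the nearer start in divergent pairs was 65.2% (61.7% to 68.6%). By annotation, 443 members (45.9%) were centered in an untranslated exon part, 205 (21.2%) in an intron, 166 (17.2%) in coding exon, 47 (4.87%) in an exon of a noncoding transcript and 104 (10.8%) outside genes. One-directional peaks were centered in untranslated exon parts in 29.6% and in introns in 35.7%.

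**Figure D3:**
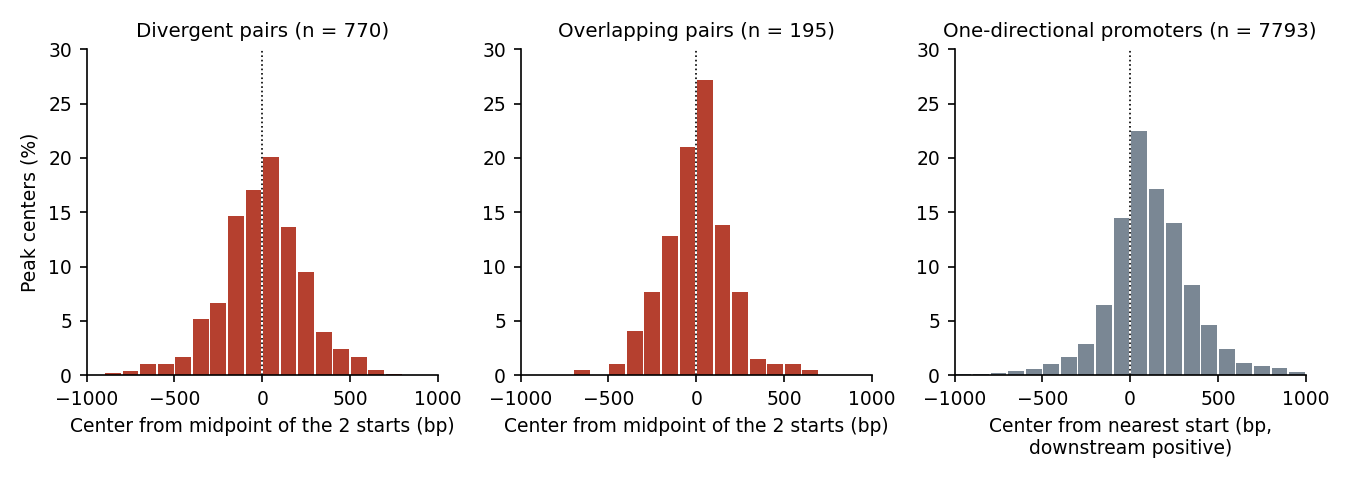
Percent of peak centers in bins of 100 bp, by distance from the midpoint of the paired starts (divergent and overlapping members) or from the nearest start, downstream positive (one-directional peaks). Centers of members lie on both sides of the midpoint in similar numbers, and those of one-directional peaks lie mainly downstream, at a median of 97 bp.

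Seen from the genes, bidirectional pairs carried mutant-specific peaks more often than other coding genes. Of the 2638 autosomal coding genes with a partner start on the opposite strand within 1 kb, 2033 (77.1%, interval 75.4% to 78.7%) had a mutant-specific center within 1 kb of a start. Among the other 18169 genes, 7363 did (40.5%, 39.8% to 41.2%), against the background of 45.2% over all genes. Both genes of a pair are usually counted from the same peak. In the Hells CTRL list the shares were 2.92% (2.31% to 3.63%) and 2.19% (1.98% to 2.41%), beside the background of 2.28%. Genes in pairs had the larger share in each of 7 classes of CpG number around the 5′-most start, with intervals that did not overlap. The shares were 39.3% (32.3% to 46.6%) against 8.47% (7.80% to 9.18%) with fewer than 10 CpG. The 5′-most start need not be the paired one: with CpG counted at the pair itself, 9 of 82 pairs with fewer than 10 CpG had a member (10.98%, 5.14% to 19.8%). They were 87.4% (84.4% to 90.1%) against 69.8% (67.8% to 71.7%) at 40 to 49 CpG.

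**Figure D4:**
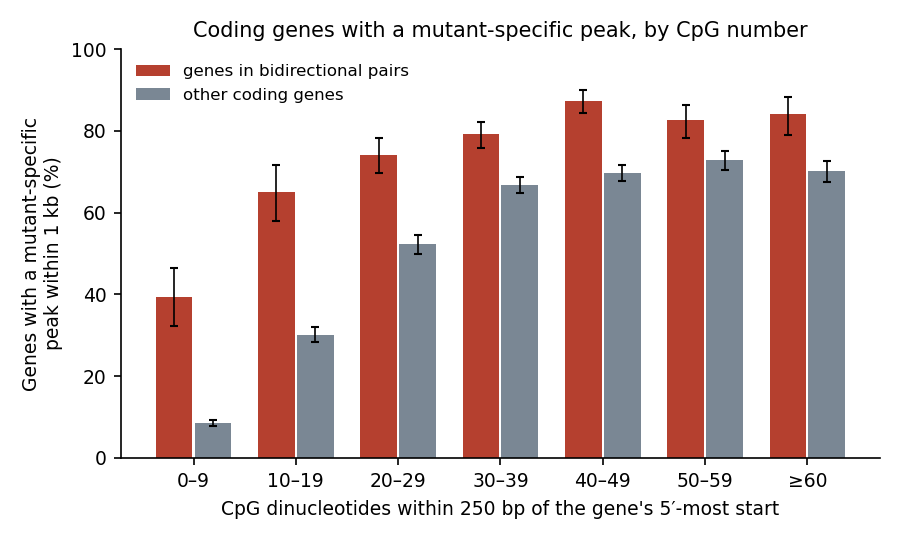
Percent of autosomal coding genes with a mutant-specific peak center within 1 kb of a start, for genes in bidirectional pairs and other coding genes, in classes of CpG number within 250 bp of the 5′-most start (bars, exact 95% intervals). Genes in pairs are higher in each class, from 39.3% against 8.47% to 84.1% against 70.1%.

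Of the 1352 autosomal pairs with starts up to 1 kb apart, 991 (73.3%, interval 70.9% to 75.6%) had a member peak within 1 kb of a start of both genes, and 8 had a Hells CTRL peak. Some members touched more than 1 pair, with 40 members near 3 or more coding genes. Dgkq/Idua held 2 members, at strengths 17 and 43, and Zfp597/Naa60 also had 2 within reach, the stronger at 107. Divergent pairs had a member in 74.9% (72.2% to 77.5%) and overlapping pairs in 67.1% (61.3% to 72.6%). The share was 78.6% (74.8% to 82.1%) for divergent starts up to 100 bp apart and 44.0% (33.2% to 55.3%) for starts over 500 bp apart, and the CpG median of these sets was 41 and 16. It was 49.5% with 10 to 19 CpG at the pair and 86.3% with 40 to 49. The 361 pairs without a member had a median of 28 CpG against 41 for the others, and 33.0% of them had fewer than 20 CpG, against 5.45%.

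A high CpG number was not enough for a peak to be called. Among pairs with 60 or more CpG, 27 of 137 had no member, and in 24 of these the nearest Hells cKO center was more than 4 kb away. The rest had a Hells cKO peak nearby. Dbf4/Slc25a40 and 3110070M22Rik/Tmem267 had peaks that the rule left out for a Hells CTRL center, and Sobp/9030612E09Rik had a center 862 bp away. The pairs were named after their values were seen. The most CpG-rich were Tmem189/Cebpb (95 CpG, nearest center 27265 bp away), Bend6/Dst (92 CpG, 23812 bp) and Alyref/Anapc11 (86 CpG, 16709 bp). Cebpb encodes a transcription factor, Dst the cytoskeletal linker dystonin, Alyref an mRNA export factor and Anapc11 a subunit of the anaphase-promoting complex. The set also held Shox2/Rsrc1 (60 CpG, 4570 bp), where Shox2 encodes a developmental homeobox factor.

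Where coding genes were dense, members had lower strengths and a smaller share of pairs held a member. Members were divided into 4 classes of similar size by the number of coding genes within 500 kb on each side, a measure chosen after values were seen. Median strength was 92 (79 to 100) for 258 members with up to 10 genes, 82.5 (68 to 99) for 11 to 16 genes, 50 (43 to 56) for 17 to 27 genes and 38 (34 to 43) for 28 or more. One-directional peaks in the same classes had medians of 57, 46, 35 and 30. Median CpG number of members fell across the classes, from 45 to 38. Among members with 40 or more CpG the medians were 100, 97, 58 and 46, so the order was also present there. Spearman's correlation of strength and gene number was -0.38 over members and -0.26 over one-directional peaks. A member was found at 82.3% (77.6% to 86.4%) of pairs with up to 10 genes around them and at 60.3% (55.5% to 65.1%) of those with 28 or more. For pairs with 40 or more CpG these shares were 88.3% (82.5% to 92.7%) and 72.4% (64.4% to 79.5%). The local background enters the strength, and its part in the difference was not tested.

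**Figure D5:**
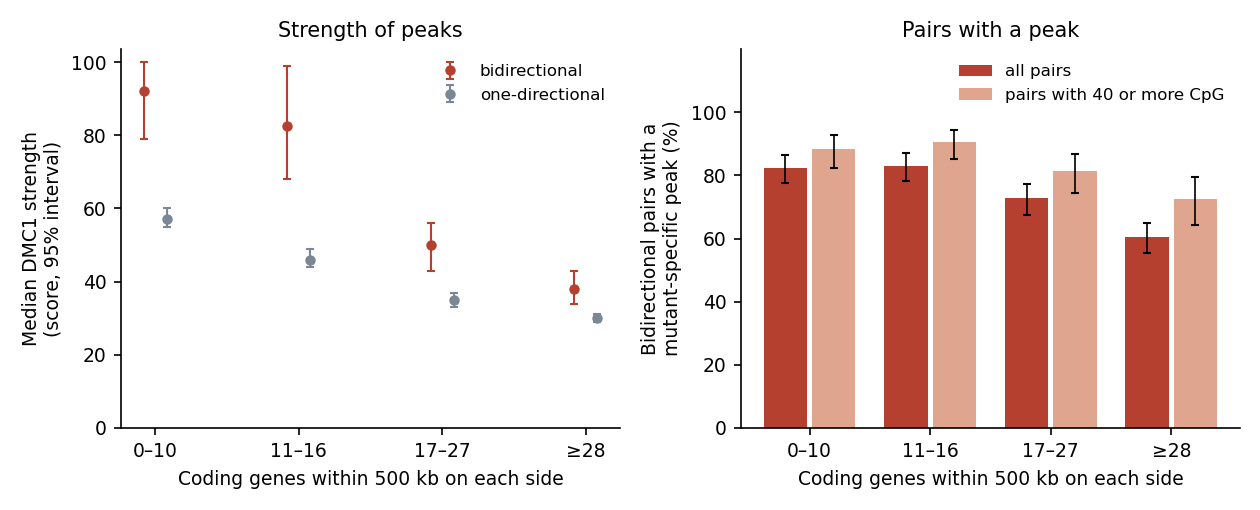
Left, median strength (score) of members and of one-directional peaks, and right, percent of bidirectional pairs with a member, by the number of coding genes within 500 kb on each side (exact 95% intervals). Member medians are 92, 82.5, 50 and 38 from the sparsest to the densest class, and the shares of all pairs with a member are 82.3%, 83.0%, 72.7% and 60.3%.

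Between chromosomes, the members' median strength had the same order. The share of pairs with a member did not follow it throughout. It was 61.4% on chromosome 10, with 7.81 genes per Mb, and 84.5% on chromosome 8, with 8.04. Chromosome 17, with 11.1 coding genes per Mb, had the lowest median strength of members, 35.5 (27 to 54, n = 48), and the lowest share of pairs with a member, 53 of 87 (60.9%, 49.9% to 71.2%). Chromosome 12, with 5.35 genes per Mb, had a member at 49 of 51 pairs (96.1%, 86.5% to 99.5%) and a median strength of 83 (66 to 125). Chromosome 14 had a median of 111.5 (53 to 146) over 44 members and chromosome 7, with 13.9 genes per Mb, 41.5 (35 to 55) over 78. Over the 19 autosomes, Spearman's correlation of genes per Mb and the members' median strength was -0.90. One-directional peaks had medians of 34 on chromosome 17 and 60 on chromosome 12. The correlation of their medians with those of members was 0.80, so the order was not particular to members. The points share 1 library, and the interval of chromosome 17 met that of chromosome 14 but not that of chromosome 12.

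Short words known as binding sites of general promoter factors were counted on both strands within 250 bp of the center, and most were in a minority of members. The ETS word CCGGAAG was in 296 members (30.7%, interval 27.8% to 33.7%), in 18.1% (17.2% to 18.95%) of one-directional peaks and in 14.8% of windows of the same length at all coding promoters. It was in 34.8% (31.8% to 37.9%) of pairs with a member and in 19.4% (15.4% to 23.9%) of pairs without one, both counted around the starts. The median CpG number of these sets was 41 and 28, and its part in the difference was not tested. The YY1 word AAGATGGCG was in 6.63% (5.14% to 8.39%) of members, 3.88% (3.46% to 4.33%) of one-directional peaks and 2.87% of all coding promoters. The SP1 word GGGCGG was in 77.8% of members, 75.2% of one-directional peaks and 53.5% of all coding promoters. CCAAT was in 40.7% of members, 33.9% of one-directional peaks and 48.2% of all coding promoters. The windows of peaks lie around their centers and those of promoters around starts: counted around the starts, CCAAT was in 48.3% of pairs with a member. The NRF1 word CGCATGCG was in 3.52%, 2.22% and 2.71% of these sets, and the CRE word TGACGTCA in 3.63%, 2.13% and 2.73%. The TATA word TATAAA was rare, in 4.77% of members, 5.42% of one-directional peaks and 16.5% of all coding promoters. None of the 7 words was found in 70 members (7.25%). Median strength was 59.5 (53 to 67) with the ETS word and 59 (53 to 66) without it. Members with the YY1 word had a median of 78.5 (46 to 97), with an interval that included the value of those without it, 59. The 46 members with TATAAA had a median of 40.5 (34 to 54), against 61 (56 to 66), and fewer CpG, 29 against 43.

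The members were also read by function, in 10 gene lists. Of 84 genes of DNA repair and replication, 35 (41.7%) were in bidirectional pairs, against 12.7% of all coding genes. A member was found at 31 of those 35 (88.6%), against 73.3% of all 2638 paired genes. Paired or not, 75 of the 84 (89.3%) had a mutant-specific center within 1 kb of a start. Over all coding genes the share was 45.2%. Of the 84, 36.9% (26.6% to 48.1%) had a member, against 9.42% of all coding genes. The 30 member peaks had a median strength of 96 (66 to 146), beside 59 over all members, and a range from 20 to 386. The strongest were at Rpa3/Umad1 (386), at Mcm4/Prkdc (chr16:15636117-15638476, 300), which pairs a subunit of the replicative helicase with the catalytic subunit of DNA-dependent protein kinase, and at Gen1/Smc6 (chr12:11264811-11267450, 254), which pairs a Holliday junction resolvase with a subunit of the SMC5/6 complex. The weakest was at Rad54l/Pomgnt1 (20), where Rad54l encodes a recombination ATPase. The lists were drawn up with results of these data known, and some genes are in more than 1 list.

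Of 43 genes of meiotic recombination and synapsis, 37 (86.0%) had a mutant-specific center within 1 kb of a start, against 45.2% of all coding genes. Among the 43, 11 were paired and 8 of them had a member (72.7%, against 73.3% of all paired genes). The strongest peaks were at Ccnb1ip1/Parp2 (chr14:50806586-50808491, 176), where Ccnb1ip1 encodes the crossover factor HEI10, and at Gpc2/Stag3 (chr5:138279414-138281683, 114), where Stag3 encodes a meiotic cohesin subunit. Trip13/Brd9, with the gene of an AAA ATPase that remodels HORMA domain proteins, had 28. The median of the 7 peaks with such a gene as the nearest start was 37 (22 to 176).

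The lists for mitochondria, protein synthesis and other cell functions had between 24.5% and 43.2% of their genes in pairs, against 12.7% of all coding genes. The paired genes with a member were between 66.7% and 91.7% of the paired genes of each list, against 73.3% over all paired genes. Paired or not, between 70.5% and 85.7% of the genes of each list had a mutant-specific center within 1 kb of a start. Over all coding genes the share was 45.2%. Of 78 genes of mitochondrial ribosomal proteins 33 were paired and 23 of these (69.7%) had a member, with a median strength of 50.5 (32 to 92) over 22 peaks, led by Ska3/Mrpl57 (chr14:57825270-57827237, 205), Mrpl50/Zfp189 (191) and Mrpl41/Pnpla7 (188). Mrpl46/Mrps11 (chr7:78782364-78783743, 32) joins genes of the large and the small ribosomal subunit at 1 promoter. For respiratory complex I, 19 of 44 genes were paired and 15 of these (78.9%) had a member, with Mrpl47/Ndufb5 (169), Ndufa5/Asb15 (146) and Ndufaf2/Ercc8 (119) the strongest. Of 38 aminoacyl-tRNA synthetase genes 10 were paired and 8 of these had a member, among them Kars/Terf2ip (246), Lyrm4/Fars2 (158) and Ears2/Ubfd1 (119). RNA polymerase subunits had a member at 11 of 12 paired genes, with Dzank1/Polr3f (277), Clcn2/Polr2h (140) and Polr3c/Rnf115 (103) the strongest. Of the 49 genes of proteasome subunits and their assembly or activator proteins 12 were paired and 8 of these had a member, among them Cep76/Psmg2 (248), Dnajc2/Psmc2 (219) and Sirt3/Psmd13 (119). Ift, Bbs and Cep genes of cilia and centrosomes had a member at 14 of 18 paired genes, led by Cep57/Fam76b (269), Cep76/Psmg2 (248) and Tmtc3/Cep290 (157).

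Of 385 zinc finger genes named Zfp, 244 (63.4%) had a mutant-specific center within 1 kb of a start. Among the 385, 34 (8.83%) were paired, and 22 of these (64.7%) had a member. The strongest were Zfp654/Cggbp1 (310), Zfp277/Dock4 (207) and Zfp91/Lpxn (201), and 3 members joined a pair of such genes, Zfp944/Zfp758 (132), Zfp942/Zfp943 (129) and Zfp668/Zfp646 (57). Olfactory receptor genes, which lack CpG-rich promoters, had next to no pairs. Of 1128 such genes 1 was paired and none had a member (interval up to 0.326%).

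Of 15 pairs known from textbooks and reviews as bidirectional, 14 were in the annotated set. Beside the 73.3% of all 1352 pairs with a member, 8 of these 14 had one. They included Mcm4/Prkdc (300), Atm/Npat (chr9:53536167-53538472, 205), Hspd1/Hspe1 (chr1:55086712-55089367, 175), Ppat/Paics (chr5:76950316-76952707, 100), Psmb1/Tbp (chr17:15497846-15501243, 92), Mrps12/Sars2 (chr7:28740829-28742452, 49) and Brca1/Nbr1 (chr11:101551004-101554287, 45). They include the DNA damage kinase ATM, the mitochondrial chaperonins HSP60 and HSP10, and the TATA-binding protein. The 6 pairs without one were Surf1/Surf2, Col4a1/Col4a2, Col4a3/Col4a4, Tap1/Psmb9, Hars/Hars2 and Nthl1/Tsc2. Their nearest Hells cKO centers were 4145 bp (Hars/Hars2) to 71934 bp (Tap1/Psmb9) from a start, and their CpG numbers, from 24 to 58, were like the 26 to 57 of the pairs with a member. Their products include basement membrane collagens, parts of antigen processing, histidyl-tRNA synthetases and the tumor suppressor tuberin. Acat2/Tcp1 was not a pair with starts up to 1 kb apart in the annotation used.

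Hells CTRL peaks were rare at bidirectional coding promoters, as at coding promoters in general. A Hells CTRL center lay within 1 kb of any start of 2.92% of paired genes and 2.28% of all autosomal coding genes. The starts of a paired gene include ones away from the pair. At the pairs themselves, 8 of 1352 (0.59%) had a Hells CTRL peak. The counts of the 2 lists are a description, because presence and absence of peaks selected the members. In that list 8 of 10397 autosomal peaks (0.077%, interval 0.033% to 0.152%) were at a bidirectional coding promoter, against 972 of 16321 (5.96%, 5.60% to 6.33%) in the Hells cKO list. The 972 consist of the 965 members and 7 peaks that the rule left out because a Hells CTRL center lay less than 400 bp away. All 7 were strong in the Hells cKO list. They were 3110070M22Rik/Tmem267 (chr13:119487377-119490578, 495), Dbf4/Slc25a40 (chr5:8421473-8423908, 420), Aldh7a1/Phax (402), Srsf7/Ttc39d (chr17:80205696-80208145, 304), Ostf1/Nmrk1 (chr19:18630582-18632621, 229), Mepce/Zcwpw1 (chr5:137787066-137789807, 192) and Mrps30/B430218F22Rik (chr13:118385931-118387924, 183). In the Hells CTRL list their partners had strengths of 129, 48, 19, 33, 28, 104 and 24 in the same order, and Dbf4 encodes the activator of the replication kinase CDC7. The strengths of the lists are not on a common scale. By percentile in its own list, Aldh7a1/Phax was at 99.7 in Hells cKO and at 5.15 in Hells CTRL.

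On chromosome X, which the rule left out, 27 Hells cKO peaks were at bidirectional coding promoters. Of these, 9 had a Hells CTRL center less than 400 bp away (33.3%, interval 16.5% to 54.0%), close to the 251 of all 796 Hells cKO peaks of that chromosome (31.5%, 28.3% to 34.9%). On autosomes the share was 7 of 972 (0.72%, 0.29% to 1.48%) at bidirectional coding promoters and 878 of 16321 (5.38%, 5.04% to 5.74%) over all peaks. The 9 had strengths from 70 to 533, with a median of 213, and included 2610002M06Rik/Tent5d (533), Mtcp1/Brcc3 (232) and Gla/Hnrnph2 (229). The 18 without a partner had a median of 42 and a range from 13 to 140.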

How the data were processed

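DMC1 ChIP-SSDS lists of 2 genotypes were used, and the 5hMeDIP libraries of the series were not analysed here. The authors trimmed reads to 50 bp, kept a Phred score above 28, mapped to GRCm38/mm10, kept unique non-duplicated reads, called peaks with MACS, and kept the highest-ranked peaks of pooled replicates under the Irreproducible Discovery Rate. The deposited strength is the authors' score: fragments after re-centering, normalized to local background and library size. The values are whole numbers, so the library-size step is not visible in them.

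Centers were interval midpoints. Transcript starts came from GENCODE M21 and bases from the RefSeq copy of GRCm38.p6, with windows of 250 bp on each side for CpG and words. Members, gene lists and measures were chosen with earlier results of these data known. Named were the 12 strongest and 3 weakest members (with ties), textbook pairs, the 3 strongest peaks per list, peaks at each limit, and peaks with a Hells CTRL partner; further names were chosen after values were seen. A few of these are not reported here. The lists' genes were matched by symbol. No test was run: shares have exact Clopper-Pearson intervals and medians order-statistic intervals, at 95%. The number of reads behind the strengths is unknown. The assignment of peaks was tested on simulated data. Alternatives varied reach, partner distance, transcript type, starts, spacing, strength, CpG and window. Versions were scipy 1.17.1, numpy 2.4.6, matplotlib 3.10.9 and pandas 2.3.3 under Python 3.11.15.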

Additional observations from a re-analysis of the deposited data

How the results depend on the processing

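The number of members stayed within 1.5 times of 965 under all 8 alternatives, from 770 (divergent order alone) to 1045 (reach of 2 kb), with 796 at a reach of 500 bp. The median strength of members stayed between 58 and 65, and that of one-directional peaks was 51 for peaks with at least 30 CpG. Members were above one-directional peaks by 14 to 16.5 in strength under 4 alternatives, and by 10.4 points as percentiles of the list. The share of genes in pairs with a mutant-specific peak was 70.6% at a reach of 500 bp, 58.9% for peaks at or above the median strength and 79.0% for a spacing of up to 500 bp. That of other genes was 37.9% at a reach of 500 bp, 36.3% with the 5′-most start alone and 26.6% for peaks at or above the median strength. The share of members centered between the starts was 39.9%, and 30.3% with the 5′-most start alone. Median CpG per 100 bp was 8.38 at members and 8.18 at one-directional peaks, 8.96 at both within 100 bp of the center, and 6.99 and 6.69 within 500 bp. Within 100 bp of the center, all 7 words were in fewer peaks, with ETS in 13.8% of members and 7.76% of one-directional peaks. The CpG difference was thus a tie within 100 bp, and no other value tried here turned its direction. Results by gene density, chromosome, gene list and Hells CTRL partner had no alternative.

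No paired analysis was possible because the 2 replicates of each genotype were pooled for the final list, which also leaves no replicate to leave out. The reads behind each strength are unknown, so a promoter where no peak was called was not shown to be without breaks. A pair without a member can also hold a Hells cKO peak that the rule left out.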
